A study of Drosophila melanogaster with 23 samples.

Results

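The genes described are grouped as ligand-gated chloride channels of Drosophila melanogaster that open to GABA, glutamate or histamine: Rdl, Lcch3, Grd, GluClalpha, ort and HisCl1. A gene was represented by the probe set that the platform annotation assigns to it alone and, where it had several, by the one with the highest mean over the 23 arrays. Of the 6 named genes, 5 had such a probe set, among 11982 genes in all. HisCl1 had none in the annotation used and is left out. Of the 5 genes, 4 were above a log2 value of 5 on at least 2 arrays and were tested with 7670 genes in all, and Grd was not.

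These channels belong to the Cys-loop family, in which subunits assemble around a pore that opens when a transmitter binds. In most mature neurons chloride is held low inside the cell, so that opening a chloride pore lets chloride in and silences the cell. Rdl, the channel named for resistance to the insecticide dieldrin, carries most fast GABA inhibition in the fly brain, and in adult PDF neurons GABA acting through it is known to promote sleep. GluClalpha is gated by glutamate and is the target of ivermectin, while ort and HisCl1 are gated by histamine, the transmitter of fly photoreceptors.

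The study profiled neurons of the circadian clock with 23 one-colour Affymetrix arrays in 8 groups of 3 arrays, except for 2 arrays of adult small Pdf cells. In the larval brain the sorted cells carried Elav-Gal4;UAS-GFP (called larval Elav, labelled as neurons in general), Tim-Gal4;UAS-YFP (larval Tim, cells that use the clock gene timeless), Pdf-Gal4;UAS-GFP (larval Pdf, neurons that make the peptide PDF), or Tim-Gal4;Pdf-Gal80;UAS-YFP (larval Tim without Pdf, in which Gal80 blocks Gal4 in PDF neurons). In the adult they were Elav-Gal4;UAS-GFP cells (adult Elav), large and small cells of Pdf-Gal4;UAS-GFP flies (large Pdf and small Pdf), and whole eyes dissected from the head, for which no genotype is given. All groups were taken from flies kept in 12 h light and 12 h dark, about 50 heads a sample near Zeitgeber time 12, and their RNA went through 2 rounds of amplification. Each line's fluorescence follows its Gal4 driver, so a group holds the cells in which that driver was active and that were picked. The samples are called biological replicates, with no word on which animals each came from. A p-value here thus rests on the spread between samples within groups, pooled over all groups in the model, which may be partly technical.

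The larval Elav cells were unlike the other sorted cells. The neuron gene elav read 12.93, 10.52 and 11.22 in them, but the median of 6 neuron markers, which besides elav are mostly synaptic genes, lay between 3.25 and 4.86 on their arrays, against 8.51 or more on all other arrays but 1. That other array was larval Tim without Pdf replicate 3, at 4.81. Markers of neuroblasts and dividing cells, 6 genes all above 5 on every larval Elav array, had array medians of 11.78 to 12.23 there. Glial markers (5 genes) had medians of 8.44 to 8.61 in larval Tim, 4.39 to 7.61 in larval Pdf, 7.72 to 8.80 in the eye and at most 6.20 elsewhere. Pdf itself was high in larval Tim, larval Pdf, large Pdf and small Pdf cells and stood at 2.92 ± 0.14 (SD, n = 3) in larval Tim without Pdf.

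Rdl was above 5 on 21 of the 23 arrays. All values here are log2 expression values from GCRMA, compared within a gene and never between genes. In larval Elav cells Rdl read 8.72, 3.24 and 2.83. In larval Tim cells it read 11.18, 11.90 and 11.99. In larval Pdf cells it read 9.30, 11.17 and 12.01. The first larval Elav array thus stood far above the other two, and every larval Tim and larval Pdf array stood above all of them. In larval Tim without Pdf the values were 10.81, 11.86 and 5.33, the low one on the array whose neuron markers were low as well.

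In the adult brain Rdl was high on all 8 arrays. Adult Elav arrays read 13.76, 13.90 and 13.67, which were its 3 highest values in the series. Large Pdf cells read 11.09, 12.35 and 10.81 and small Pdf cells read 11.67 and 12.14. These groups overlapped each other and lay wholly under adult Elav. The eye read 11.87, 10.45 and 9.68. In order of group means, adult Elav (13.78 ± 0.12) came first and apart from small Pdf (11.91 ± 0.33, n = 2), followed by larval Tim (11.69 ± 0.44), large Pdf (11.42 ± 0.82), larval Pdf (10.83 ± 1.38), the eye (10.67 ± 1.11), larval Tim without Pdf (9.33 ± 3.51) and larval Elav (4.93 ± 3.29). From small Pdf downwards each neighbour in this order overlapped the next.

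Lcch3 encodes a subunit related to the vertebrate GABA-A receptor beta subunits, which in frog oocytes forms GABA-gated channels with Rdl or with Grd. Which ions either pairing passes was not examined here, so Lcch3 is not read as a chloride subunit in both. Lcch3 was above 5 on 17 arrays. In larval Elav cells it read 3.08, 2.78 and 3.68, below the detection limit throughout. In larval Tim cells it read 7.74, 9.55 and 8.04, and in larval Pdf cells 8.60, 6.55 and 9.50. In larval Tim without Pdf it read 5.26, 8.69 and 3.43. The last group spanned the range from undetected to the level of larval Tim cells, again with replicate 3 lowest.

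The adult brain cells had the highest Lcch3 values of the series, and these were close together. Large Pdf cells read 11.91, 11.76 and 11.89, and small Pdf cells 11.83 and 11.41. Adult Elav cells read 11.42, 11.09 and 11.51. All 8 adult brain arrays stood above all larval arrays. The eye, by contrast, read 6.16, 4.40 and 4.79, with only replicate 1 above 5. The order of means was large Pdf (11.85 ± 0.078), small Pdf (11.62 ± 0.30) and adult Elav (11.34 ± 0.22), which overlapped as neighbours, then at a gap larval Tim (8.44 ± 0.97), larval Pdf (8.22 ± 1.51), larval Tim without Pdf (5.79 ± 2.67) and the eye (5.12 ± 0.93), which also overlapped, and last and apart larval Elav (3.18 ± 0.46).

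GluClalpha, the subunit of the fly's glutamate-gated chloride channel, is known in the larva to let glutamate from dorsal clock neurons inhibit the PDF neurons. It was above 5 on 20 arrays, every array but the 3 of larval Elav, which read 3.34, 3.24 and 3.23. Larval Tim cells read 6.36, 6.67 and 7.05, and larval Pdf cells 5.89, 7.25 and 9.19. Larval Tim without Pdf read 7.79, 9.25 and 5.38. These 3 larval groups overlapped, and the spread within larval Pdf and within larval Tim without Pdf was wide.

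In the adult, GluClalpha was detected in all groups, the eye included. Adult Elav cells read 9.98, 9.04 and 10.05, and large Pdf cells 7.25, 9.72 and 9.60. Small Pdf cells read 9.05 and 9.22. The eye read 9.47, 9.27 and 7.80. Large Pdf replicate 1 and eye replicate 3 were the lowest adult arrays. The means ran from adult Elav (9.69 ± 0.57) through small Pdf (9.13 ± 0.12), large Pdf (8.86 ± 1.39), the eye (8.85 ± 0.91), larval Tim without Pdf (7.47 ± 1.95), larval Pdf (7.44 ± 1.66) and larval Tim (6.69 ± 0.35) to larval Elav (3.27 ± 0.066), and only the last step separated neighbours without overlap.

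ort, the histamine-gated channel that second-order neurons use to read photoreceptor output, was above 5 on 2 arrays, both of the eye. The eye read 7.11, 5.38 and 3.37. In each of the 7 other groups the mean lay between 2.52 and 2.92, and the median over all 23 arrays was 2.66. Eye replicate 3 was not above the highest larval Tim without Pdf array, so the order of the groups has no gap below the eye. Grd, a GABA receptor-like subunit that pairs with Lcch3 in frog oocytes, lay between 2.18 and 2.69 on all arrays and was not detected in any group.

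**Figure D1:**
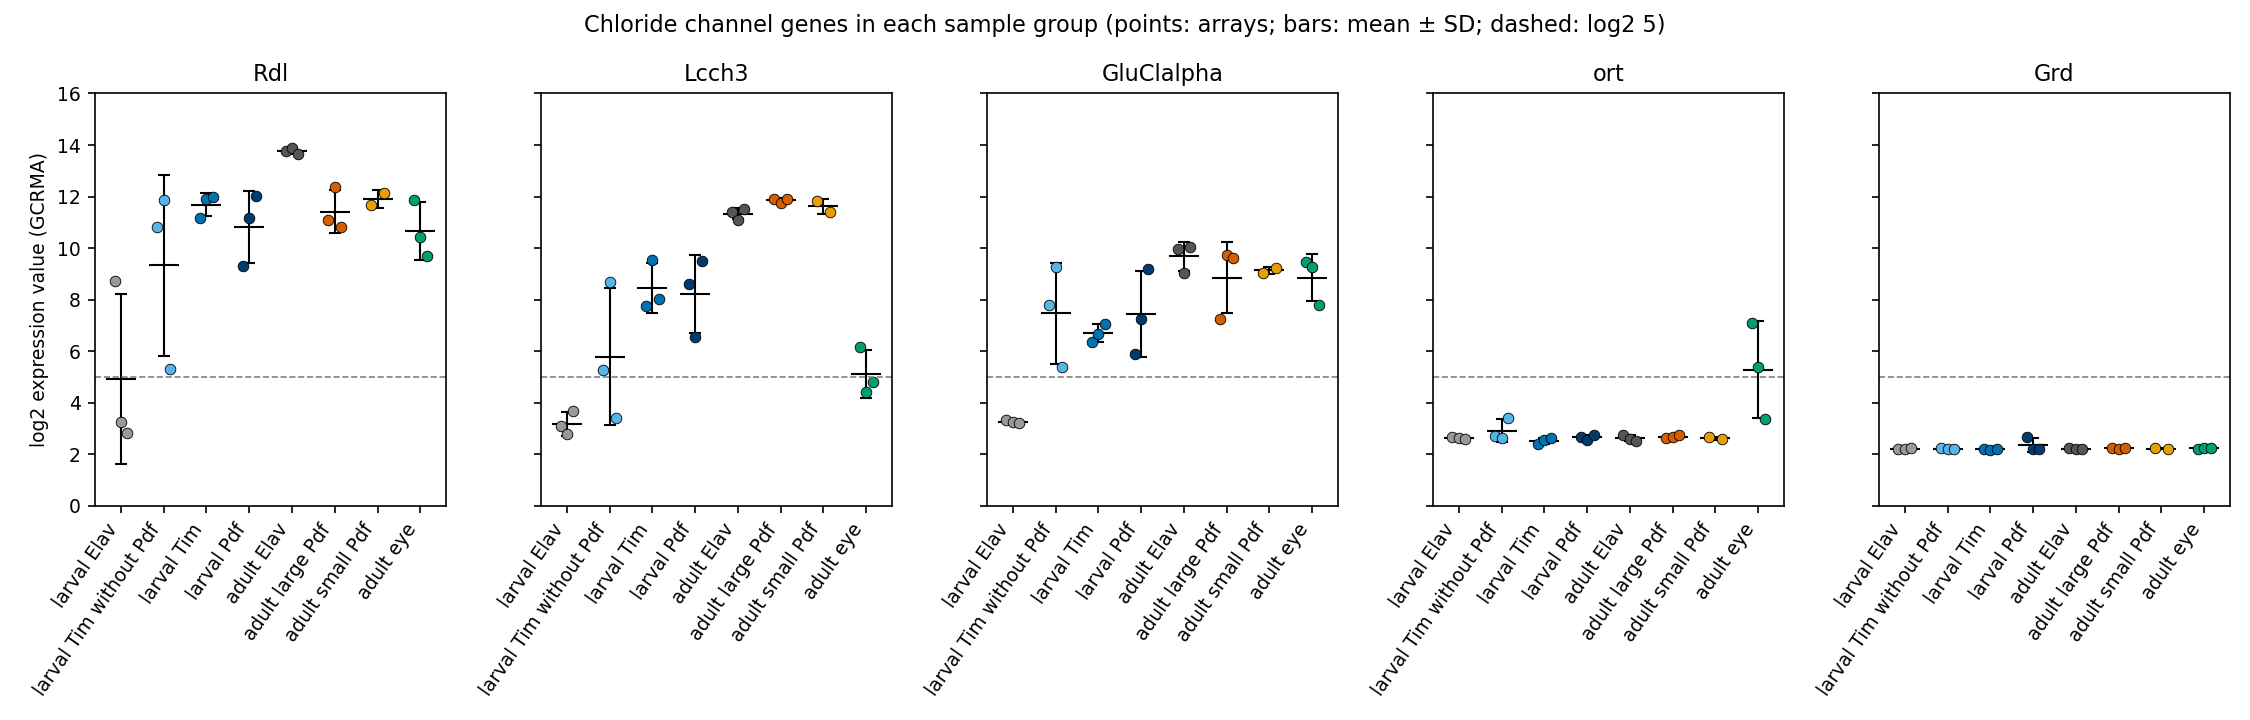
Log2 expression value (GCRMA, vertical axis) of the 5 chloride channel genes with a probe set in each of the 8 sample groups, 1 point per array, with bars for the mean ± SD and a dashed line at the detection limit of 5. Rdl and GluClalpha lie above the line in nearly all groups but larval Elav, Lcch3 is near 11 to 12 in the adult brain groups and near 5 in the eye, ort passes the line on 2 eye arrays and Grd on none.

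The first set of comparisons sets the clock cells of the larval brain against the cells labelled larval Elav, whose synaptic markers were mostly low and whose markers of dividing cells were high. Rdl, Lcch3 and GluClalpha were all higher in the larval Pdf cells than in the Elav cells. Rdl was at least 24.0-fold higher (log2 difference 5.90, SE 1.40, limma adjusted p = 0.00427), with 1 of 3 larval Elav arrays above 5. Lcch3 was at least 9.29-fold higher (5.03, SE 0.93, adjusted p = 5.35e-04) and GluClalpha at least 5.44-fold higher (4.18, SE 0.87, adjusted p = 0.00149). Where an array of the lower group lay under 5, the fold is a bound with values under 5 raised to 5. A gene was called at an adjusted p under 0.05, over all 7670 genes, together with a fitted fold of 2 or more. By that rule 3 of the 4 tested channel genes were called higher, and none was lower, against 13.3% of all genes tested. In none of the 3 did the groups overlap. How many of all genes tested had groups without overlap was not counted, in this or any later comparison, so overlap is given as description only.

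The median log2 difference over the 4 tested channel genes was 4.60, against -0.11 over all genes tested. The neuron markers moved the same way, with 5 of 6 higher and a median difference of 4.98, and markers of dividing cells the other way, with 4 of 6 lower. Glial markers were higher for 4 of 5 (median 3.07). Hemocyte markers were higher for 4 of 5 too (median 4.81), with array medians of 9.94 and 9.56 on 2 larval Pdf arrays and 2.44 on the third. In sorted pools, a smaller share of cells with a transcript and less of it per cell cannot be told apart, and the part of these 4 marker lists in the differences was not tested. Without larval Elav replicate 1 the Rdl difference was 7.79 (adjusted p = 2.20e-04), and with only these groups in the model its adjusted p was 0.0785.

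Larval Tim cells gave similar values against the same larval Elav arrays, which both comparisons share. Rdl was at least 43.7-fold higher (6.76, adjusted p = 0.00149), Lcch3 at least 10.9-fold (5.26, adjusted p = 3.70e-04) and GluClalpha at least 3.23-fold (3.43, adjusted p = 0.00707). The groups of these 3 genes did not overlap, and 3 of 4 channel genes were called higher, against 13.8% of all genes. Neuron markers were higher for 5 of 6 (median 4.85), and all 5 glial markers were higher as well (median 5.41), a part that was not tested. GluClalpha lost its call with values under 5 raised to 5 (adjusted p = 0.182).

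In larval Tim without Pdf the same 3 genes were called higher than in larval Elav, against 14.7% of all genes. GluClalpha was at least 5.56-fold higher (4.21, adjusted p = 8.03e-04) with no overlap. Rdl was at least 8.53-fold higher (4.40, adjusted p = 0.0173) and Lcch3 at least 1.73-fold (2.61, adjusted p = 0.0322), and in both the groups overlapped. Neuron markers were higher for 3 of 6 (median 2.50) and markers of dividing cells lower for all 6 (median -7.68).
Leaving out larval Tim without Pdf replicate 3, the array with low neuron markers, raised all 3 differences, to 6.41 for Rdl (adjusted p = 5.68e-04), 3.79 for Lcch3 (adjusted p = 0.00256) and 5.25 for GluClalpha (adjusted p = 1.13e-04). Rdl lost its call without larval Elav replicate 2 (0.0923) or 3 (0.0990) or larval Tim without Pdf replicate 1 (0.0771) or 2 (0.111), and Lcch3 without larval Elav replicate 1 (0.0672) or 2 (0.0982) or larval Tim without Pdf replicate 2 (0.264), all as adjusted p. Both were also lost with only these groups in the model (0.201 and 0.185) and with values under 5 raised to 5 (0.0623 and 0.212).

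PDF neurons were next set against the other timeless cells of the larva. No channel gene was called between larval Pdf and larval Tim without Pdf with limma, whereas 22.7% of all genes were. Of the 4 channel genes Lcch3 had the largest log2 difference, 2.43 (95% interval 0.47 to 4.38, adjusted p = 0.0685). It was called without larval Pdf replicate 2 (3.26, adjusted p = 0.0258) or larval Tim without Pdf replicate 2 (3.87, adjusted p = 0.00136). The interval for Rdl ran from -1.44 to 4.43 around 1.49 (adjusted p = 0.492), and its sign turned without larval Tim without Pdf replicate 3 (-0.51). The means of GluClalpha, 7.44 and 7.47, were alike within a spread of 1.66 and 1.95. Neuron markers were higher in larval Pdf cells for 4 of 6 and lower for 1, markers of dividing cells higher for 5 of 6 (median 4.31), hemocyte markers higher for 3 of 5 (median 3.89) and glial markers higher for 2 of 5 and lower for 1, and their part was not tested.

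In the adult the question was again whether PDF neurons differ from neurons in general. No channel gene was called in large Pdf or in small Pdf cells against adult Elav cells with limma, while 9.06% and 8.75% of all genes were called. Rdl was lower by a log2 difference of -2.36 in large Pdf (95% interval -5.30 to 0.58, adjusted p = 0.366) and of -1.87 in small Pdf cells (-5.15 to 1.41, adjusted p = 0.579). All 5 Pdf arrays lay under the lowest adult Elav array. With only the groups compared in the model, so that larval groups no longer set the spread, Rdl was called lower in both, with adjusted p = 0.0494 for large Pdf and 0.0388 for small Pdf.

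Lcch3 stood slightly above adult Elav in the Pdf cells. Its differences were 0.52 in large Pdf (95% interval -1.44 to 2.47, adjusted p = 0.856) and 0.29 in small Pdf (-1.90 to 2.47, adjusted p = 0.974). For GluClalpha they were -0.83 in large Pdf (-2.65 to 0.98, adjusted p = 0.671) and -0.55 in small Pdf (-2.58 to 1.48, adjusted p = 0.859). These intervals leave room for differences of several-fold in either direction for Lcch3. None of the 6 neuron markers was called in either comparison.

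Large and small Pdf cells, which share the PDF peptide but differ in size and in their targets, were not told apart by any of the channel genes. The differences, large minus small, were -0.49 for Rdl (95% interval -3.77 to 2.80), 0.23 for Lcch3 (-1.96 to 2.42) and -0.28 for GluClalpha (-2.31 to 1.75), each with an adjusted p of 1 in limma and an unadjusted p above 0.05. Over all genes 3.62% were called. The GluClalpha difference changed sign without large Pdf replicate 1 (0.53).

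In the eye Lcch3 was lower than in adult Elav cells, and ort was the channel gene found above 5 on some eye arrays and on no other array. Lcch3 was at least 61.8-fold lower in the eye (log2 difference -6.22, SE 0.93, adjusted p = 3.05e-05), with 1 of 3 eye arrays above 5 and no overlap. Lcch3 was the 1 of 4 channel genes called lower, a share near the 25.5% of all genes called lower. That count thus does not set the channel genes apart. ort stood at 5.29 ± 1.87 in the eye, a log2 difference of 2.66. It passed the filter on low values through 2 eye arrays alone, so this is a description, and nothing is read from its call beside the 14.4% of all genes called higher. Rdl lay below adult Elav on all eye arrays, by -3.11 (95% interval -6.05 to -0.17), and missed the threshold (adjusted p = 0.0855). GluClalpha differed by -0.84 (-2.66 to 0.98, adjusted p = 0.475).

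The eye sample is whole tissue and not sorted cells. All 3 photoreceptor markers with a probe set were high on each eye array, with medians of 14.14 to 14.54, and at most 2.76 elsewhere. Glial and hemocyte markers were also higher in the eye than in adult Elav, for 4 of 5 and 3 of 5 genes, with 1 hemocyte marker lower. Neuron markers were lower in the eye for 2 of 6 (median -1.33) and none was called higher. The part of these markers in the channel values was not tested. With values under 5 raised to 5 the ort difference was 0.83. Rdl was called lower with array weights (-2.72, adjusted p = 0.0421) and with only these groups in the model (adjusted p = 0.00845).

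Between the larval and the adult stage the largest differences were in the Elav cells. Rdl was at least 186-fold higher in adult than in larval Elav cells (8.85, adjusted p = 3.88e-05), Lcch3 at least 80.9-fold (8.16, adjusted p = 8.29e-07) and GluClalpha at least 25.8-fold (6.42, adjusted p = 6.21e-06). None of the 3 overlapped, and the 3 of 4 channel genes called higher stood against 20.3% of all genes. All 6 neuron markers were higher too (median 7.76) and all 6 markers of dividing cells lower (median -8.29), and the part of either was not tested. Without larval Elav replicate 1 the Rdl difference was 10.74 (adjusted p = 2.69e-06).

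In the Pdf cells Lcch3 alone of the 4 tested channel genes was called between the stages. It was 12.5-fold higher in large Pdf than in larval Pdf cells (3.64, SE 0.93, adjusted p = 0.00734), as 1 of 4 channel genes against 11.3% of all genes. Against larval Pdf it was 10.6-fold higher in small Pdf cells (3.41, SE 1.05, adjusted p = 0.0391), again 1 of 4, against 4.82% of all genes. In both comparisons the adult and larval groups did not overlap. Rdl differed from larval Pdf by 0.59 in large Pdf (95% interval -2.35 to 3.53, adjusted p = 0.818) and by 1.08 in small Pdf (-2.20 to 4.36, adjusted p = 0.722).
GluClalpha differed by 1.41 in large Pdf (-0.40 to 3.23, adjusted p = 0.250) and by 1.69 in small Pdf (-0.34 to 3.72, adjusted p = 0.273). Of the neuron markers 1 of 6 was higher in each comparison. Lower in large and in small Pdf cells were 6 and 5 of 6 markers of dividing cells (medians -4.60 and -3.96), 3 of 5 hemocyte markers in each (medians -4.76 and -4.52, with 1 more higher in large Pdf), and 2 and 3 of 5 glial markers. Their part in the Lcch3 values was not tested. The Lcch3 call in large Pdf was lost without larval Pdf replicate 2 (2.80, adjusted p = 0.0520). In small Pdf it was lost without larval Pdf replicate 1 (adjusted p = 0.0607) or 2 (0.153), without small Pdf replicate 1 (0.195) or 2 (0.108), with the replicate number as a block (3.33, adjusted p = 0.0662), and under other settings given at the end.

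The Pdf cells stood in a different place relative to the Elav cells at each stage. The adult enrichment minus the larval one was called lower for 3 of 4 channel genes (Rdl, Lcch3 and GluClalpha), both for large Pdf cells, against 10.9% of all genes in that contrast, and for small Pdf cells, against 9.61%. The values and their limits are given at the end.

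**Figure D2:**
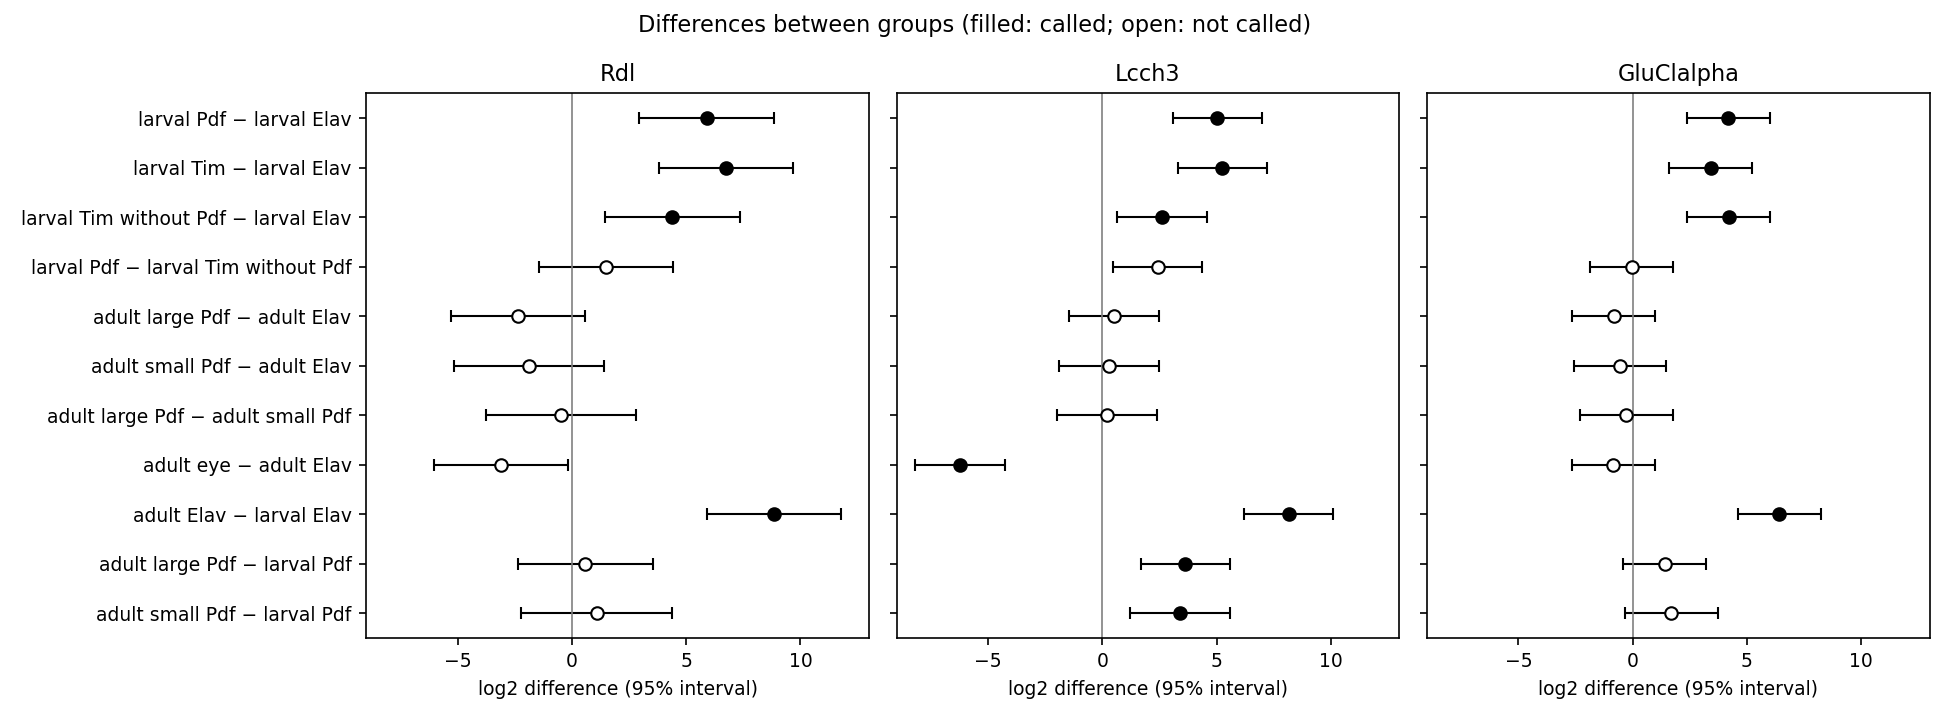
Log2 difference between groups (horizontal axis, with 95% interval) of Rdl, Lcch3 and GluClalpha in the 11 comparisons of 2 groups; filled points were called and open points were not. All 3 genes are called in the comparisons with larval Elav, and elsewhere only Lcch3 is called, lower in the eye than in adult Elav and higher in both adult Pdf groups than in larval Pdf.

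GluClalpha was the only channel gene with more than 1 probe set, and its 4 probe sets did not report one pattern. The one used above, 1637692_at, had the highest mean. Probe set 1630897_at was above 5 on 18 arrays and had its highest mean in adult Elav (8.38) and its lowest in larval Elav (3.78). Its larval Tim, larval Pdf and larval Tim without Pdf means of 5.99, 6.02 and 6.05 lay about midway between these. Probe set 1634465_a_at passed 5 on 6 arrays, among them 2 of the eye (7.33 and 6.34, with 3.05 on the third) and 2 of adult Elav (5.91 and 6.21, with 4.53 on the third). Probe set 1639735_at stayed between 3.49 and 4.96 and was not detected.

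The probe sets differed in what they called. With 1630897_at GluClalpha was higher in adult than in larval Elav cells (4.60, adjusted p = 3.68e-04), as it was with 1634465_a_at (2.59, adjusted p = 0.0179). Its calls in the larval groups were lost with both. With 1630897_at the differences from larval Elav were 2.24 in larval Pdf (adjusted p = 0.0752), 2.21 in larval Tim (0.0878) and 2.27 in larval Tim without Pdf (0.0528). With 1634465_a_at they were 1.26 (adjusted p = 0.303), 0.90 (0.502) and 0.29 (0.842). Which transcripts each probe set reads was not examined here.

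**Figure D3:**
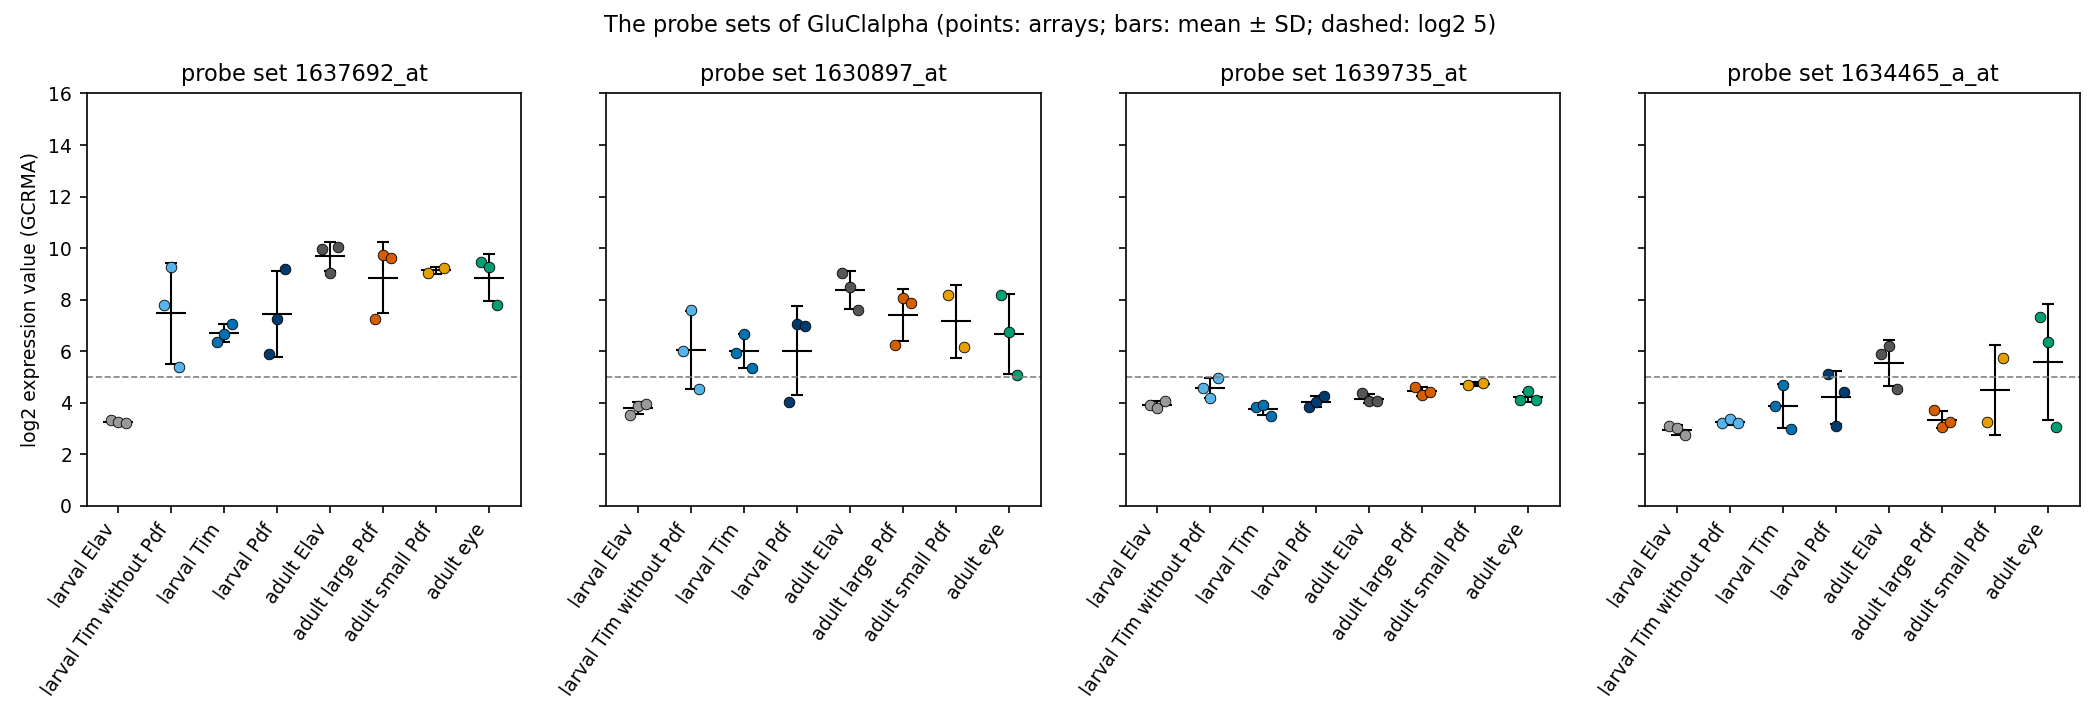
Log2 expression value (GCRMA, vertical axis) of the 4 GluClalpha probe sets in each sample group, 1 point per array, with bars for the mean ± SD and a dashed line at 5. Probe sets 1637692_at and 1630897_at share their lowest group, larval Elav, while 1634465_a_at passes the line on 6 arrays and 1639735_at on none.

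The lists of genes around these channels gave their setting in each cell type. Among the genes that make, load, sense or break down GABA, 5 of 7 were tested. All 5 were higher in adult than in larval Elav cells, beside 20.3% of all genes. Gad1, which makes GABA, read 14.48, 14.19 and 13.64 in adult Elav. It read 2.76, 2.80 and 2.81 in large Pdf and 2.77 and 2.75 in small Pdf, at least 550.0-fold lower in each (adjusted p = 1.81e-05 and 6.58e-05). Gad1 was thus undetected on all 5 adult Pdf arrays, where Rdl and Lcch3 lay between 10.81 and 12.35.

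In larval Pdf cells Gad1 read 10.60, 2.87 and 3.02, so that a single array carried it. VGAT, which loads GABA into vesicles, was at least 6.92-fold lower in large Pdf than in adult Elav (adjusted p = 0.00377), and read 7.35 and 5.96 in small Pdf cells. The eye had 4 of the 5 GABA genes lower than adult Elav, beside 25.5% of all genes, among them Gad1 at 26.1-fold (adjusted p = 0.0113) and VGAT at 10.8-fold or more (adjusted p = 5.40e-06). With only large Pdf and adult Elav cells in the model the VGAT difference was not called (adjusted p = 0.120).

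The metabotropic GABA receptors, which act through G proteins and not through a chloride pore, differed between the adult Pdf groups. GABA-B-R1 read 8.01 and 7.72 in small Pdf and 4.22, 3.32 and 5.97 in large Pdf, at least 5.81-fold lower there (adjusted p = 0.0120). GABA-B-R3 read 10.35 and 11.24 in small Pdf and 7.99, 2.81 and 3.28 in large Pdf, at least 27.8-fold lower there (adjusted p = 0.0313). In both genes the groups did not overlap. The small Pdf group has 2 arrays, and without the first or the second the adjusted p was 0.0900 or 0.0593 for GABA-B-R1 and 0.106 or 0.173 for GABA-B-R3, and with the replicate number as a block that of GABA-B-R3 was 0.0597. The GABA-B-R3 call was also lost without large Pdf replicate 2 or 3 (adjusted p = 0.104 each) and without the filter on low values (0.0740). With only these groups in the model neither was called (adjusted p = 0.266 and 0.305).

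Among genes of the chloride gradient, kcc, the potassium chloride cotransporter that carries chloride out of neurons, was lowest in larval Elav and highest in adult Elav. In larval Elav it read 4.76, 4.42 and 7.32, against 9.90 ± 0.61 in larval Pdf (at least 17.4-fold higher, adjusted p = 3.12e-05) and 10.31 ± 0.30 in larval Tim (at least 23.2-fold higher, adjusted p = 1.65e-05). In adult Elav it read 13.57, 13.26 and 13.06. Large Pdf cells were 7.88-fold lower than that (10.32 ± 0.56, n = 3, adjusted p = 0.00377), small Pdf cells 7.19-fold (10.45 ± 0.89, n = 2, adjusted p = 0.0126) and the eye 8.08-fold (10.28 ± 0.64, n = 3, adjusted p = 7.39e-04). The groups did not overlap in any of these. The small Pdf call was lost without small Pdf replicate 2 (adjusted p = 0.157) and with only these groups in the model (0.0552).

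Of the kinases that act on such cotransporters, fray was higher in larval Tim without Pdf than in larval Elav (7.50-fold, adjusted p = 8.91e-04) and Wnk was lower there (at least 3.07-fold, adjusted p = 0.0104). The Wnk call was lost without larval Elav replicate 3 (adjusted p = 0.0598), without larval Tim without Pdf replicate 1 (0.0764) and with only these groups in the model (0.0824). ClC-a, a chloride channel of another family, read 9.95, 9.08 and 10.44 in the eye, at least 28.3-fold higher than in adult Elav (adjusted p = 2.61e-08). It was not detected in adult Pdf cells. Among 7 tested genes of the gradient list, 3 were higher in adult than in larval Elav, beside 20.3% of all genes.

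Other Cys-loop chloride subunits included pHCl-1, a channel closed or opened by pH. It read 10.16, 10.19 and 9.52 in adult Elav and was 7.52-fold lower in large Pdf (7.05 ± 1.28, n = 3, adjusted p = 0.00789) and 6.13-fold lower in small Pdf (7.34 ± 0.72, n = 2, adjusted p = 0.0321), without overlap. Its small Pdf call was lost without adult Elav replicate 1 (adjusted p = 0.0920) or 2 (0.0841) and with the mean of its 7 probe sets (-1.21, adjusted p = 0.0642). It was also lost with a further quantile normalization (adjusted p = 0.0689) and without the filter on low values (0.0540). Without small Pdf replicate 1 or 2, which leaves a single array, the difference was -3.125 or -2.107. With only the groups compared in the model both calls were lost (adjusted p = 0.0845 for large Pdf and 0.0581 for small Pdf). alka, an alkali-sensing chloride channel, read 7.90, 7.11 and 5.91 in the eye (at least 3.93-fold higher than in adult Elav, adjusted p = 2.08e-05). CG8916, CG6927, SecCl and pHCl-2 were not above 5 on 2 arrays.

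The genes of histamine metabolism stood beside ort in the eye. Of the 5 tested, t and Balat passed the filter on low values through eye arrays alone and e through 2 eye arrays and 1 of larval Pdf, so these 3 are given as a description, with no test. Hdc, which makes histamine, read 11.95, 11.51 and 12.11 in the eye, and 2.35, 6.08 and 12.24 in adult Elav, so the groups overlapped (at least 17.0-fold, adjusted p = 0.0139). CarT, the transporter that returns carcinine to photoreceptors, read 10.66, 10.14 and 10.88 (at least 47.2-fold, adjusted p = 1.71e-07). The hydrolase gene t, which frees histamine from carcinine, read 10.26, 8.83 and 11.00 (at least 32.7-fold).

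The last pair of the list, e and Balat, behaved across the eye arrays as ort did. The gene e, whose enzyme in glia joins histamine to beta-alanine, read 9.26, 7.89 and 2.38, and Balat, a beta-alanine transporter, 9.80, 9.06 and 2.22. ort, e and Balat were high on eye replicates 1 and 2 and low on replicate 3, on which Hdc, CarT, t and the photoreceptor markers were as high as on the others. The Hdc call was lost without adult Elav replicate 1 (adjusted p = 0.114) or 2 (0.0519), and with only these groups in the model (0.145).

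Adar, the enzyme that edits transcripts of Rdl and GluClalpha among others, was detected on the large Pdf arrays alone. It stood at 6.28 ± 0.55 there (n = 3), against 3.57 ± 0.63 in adult Elav and 3.68 ± 0.51 in small Pdf (n = 2). It passed the filter on low values through these arrays alone, so no test is given. Arrays of this kind do not read editing itself.

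**Figure D4:**
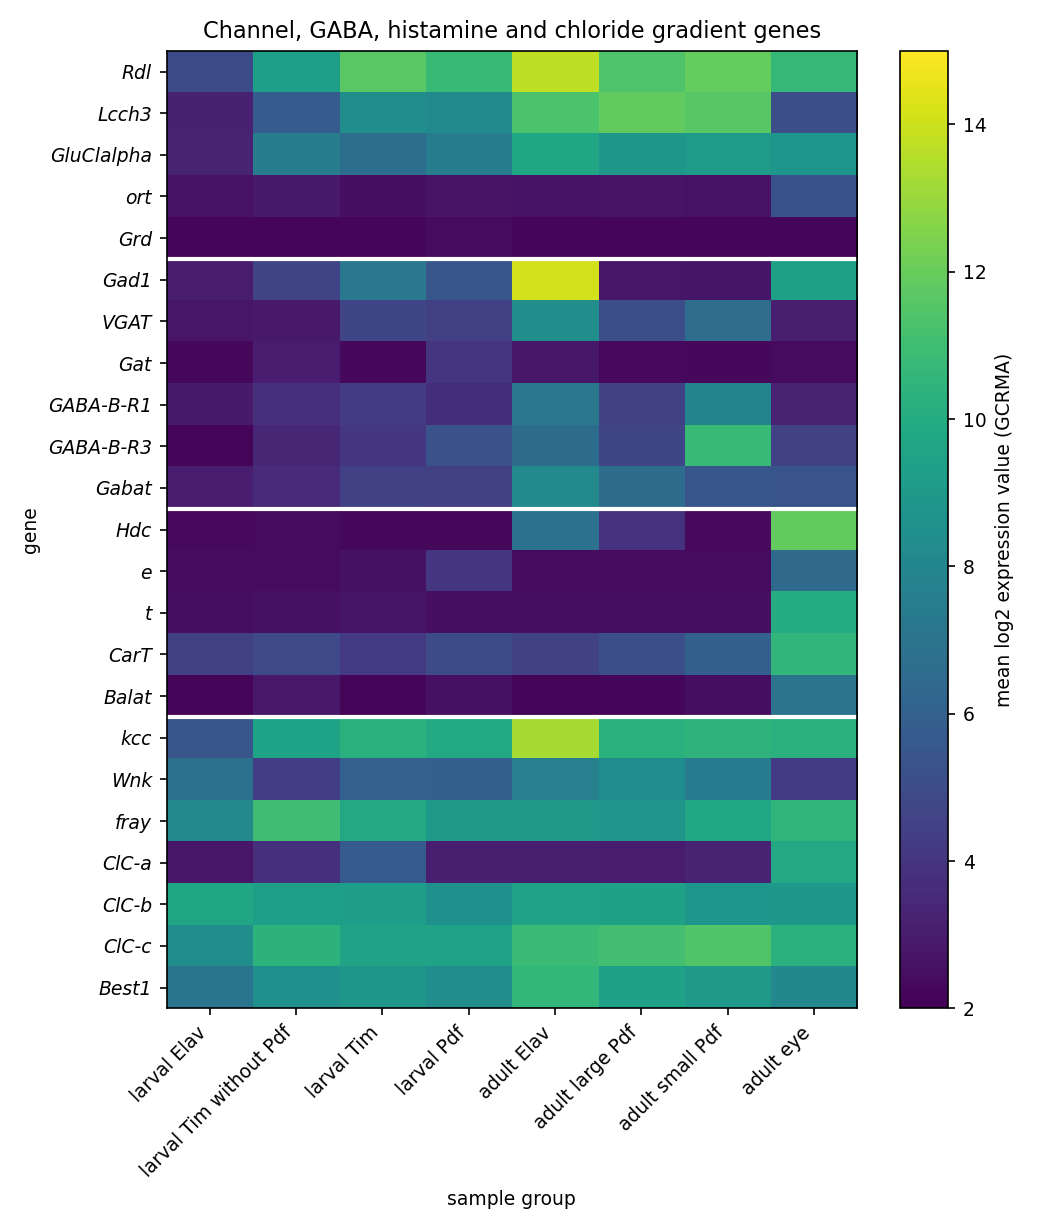
Mean log2 expression value (GCRMA, colour scale) of each gene in each of the 8 sample groups. White lines part the 5 channel genes, 6 GABA genes, 5 histamine genes and 7 genes of the chloride gradient. Gad1 is dark in both adult Pdf groups where Rdl and Lcch3 are bright, and the histamine genes are bright in the eye.

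Across all 23 arrays Rdl, Lcch3 and GluClalpha followed the neuron markers to different degrees, and ort did not follow them. Pearson's r with the median of the 6 markers was 0.912 for Rdl, 0.787 for Lcch3 and 0.895 for GluClalpha over all arrays. Within the 12 larval arrays it was 0.931, 0.899 and 0.867, and within the 11 adult arrays 0.818, 0.749 and 0.234. For ort, above 5 on only 2 arrays, r was 0.088 over all arrays, -0.368 within the larval and -0.659 within the adult arrays. These are descriptions over arrays that share groups, with no test. On the eye arrays Lcch3 lay at 4.40 to 6.16 and GluClalpha at 7.80 to 9.47, at marker medians of 10.67 to 11.01.

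**Figure D5:**
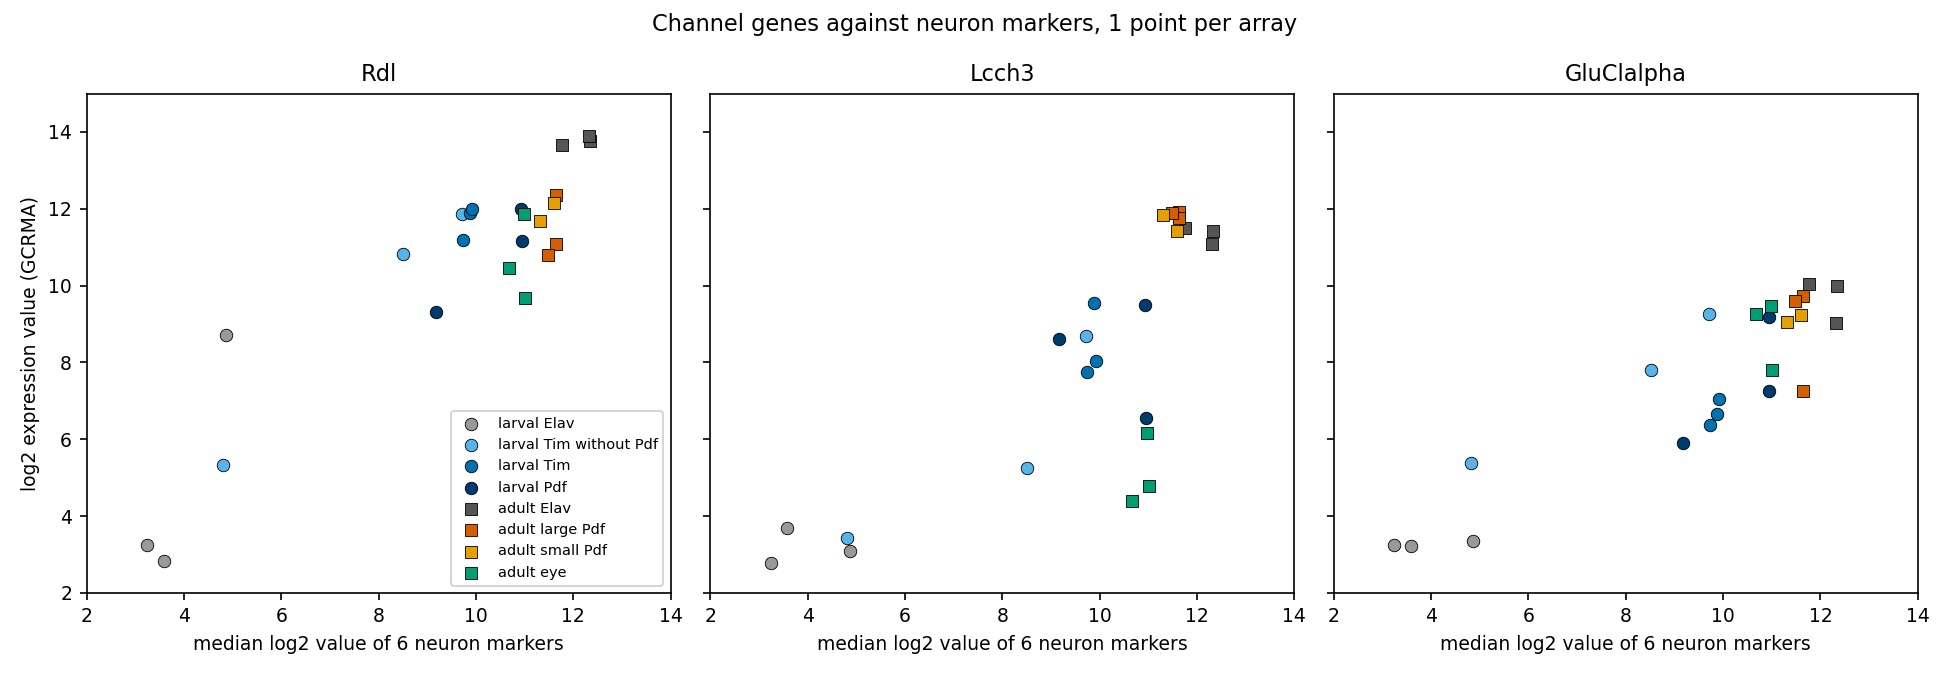
Log2 expression value (GCRMA, vertical axis) of Rdl, Lcch3 and GluClalpha against the median log2 value of 6 neuron markers (horizontal axis), 1 point per array, with circles for larval and squares for adult groups. The larval Elav arrays and 1 array of larval Tim without Pdf lie at the low end of the markers, and the 3 eye arrays lie low for Lcch3 at marker medians of 10.67 to 11.01.

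The genes most like each channel gene in pattern, by Pearson's r over the 23 arrays among all genes tested, were IA-2 (0.960), OtopLa (0.949) and nAChRbeta1 (0.946) for Rdl. For Lcch3 they were Fife (0.979), nord (0.977) and CG31221 (0.966). For GluClalpha the closest were CG40498 (0.917), Sh (0.916) and CG6424 (0.908). The gene most like ort was up (0.975), followed by CG7906 (0.936) and Balat (0.930), a likeness that rests on a pair of eye arrays. Between channel genes r was 0.831 for Rdl and GluClalpha, 0.743 for Rdl and Lcch3 and 0.698 for Lcch3 and GluClalpha. With ort it was 0.014 for Rdl, -0.312 for Lcch3 and 0.228 for GluClalpha.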

How the data were processed

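The deposited table holds log2 values, which the authors computed by GCRMA according to the submitters' processing notes. Its version, settings and number of runs, and a genome build, are not given in the sources consulted. GCRMA gathers undetected probe sets near the low end of the scale, so a log2 value of 5 was taken as the detection limit. Values ran from 1.68 to 16.2, and array medians from 2.90 to 3.31. Arrays of a group correlated with r of 0.846 to 0.966. The number of arrays limits the precision.

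Of 18952 probe sets, 183 were controls, 13647 had 1 gene in the platform annotation, 402 had several and 4720 had none. For 13544 probe sets the gene ID was matched to a current symbol, which was used whether or not it had changed. Of 11982 genes, 7670 lay above 5 on at least 2 of 23 arrays and were tested.

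Groups came from the titles. Limma 3.58.1 in R 4.3.3 fitted 1 model with a mean for each of 8 groups (15 residual degrees of freedom) with eBayes, and 13 contrasts: 11 pairs of groups and 2 differences of differences. Tests were two-sided with Benjamini-Hochberg adjustment over the genes tested. The procedure was also run on simulated data, for the 11 pairs of groups and not for the 2 differences of differences. Each gene was simulated with the same spread in all groups, unlike the measured values. The outcome is not given here, and nothing is read from it. Genes named are the 6 channel genes, listed genes of the same transmitters and of the chloride gradient, cell type markers, and the 3 genes most like each channel gene. Members and lists were chosen with earlier results of these data known. No batch or scan date was given. The main model did not pair arrays by replicate number, and the labels do not say whether numbers match between groups. Deviations from group means had a median r of -0.015 between same-numbered arrays of different groups, with 6 of 77 pairs above 0.1. Between other-numbered arrays the median was 0.0037, with 19 of 154 pairs above 0.1.

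Alternatives were the replicate block, array weights, only the groups compared, a further quantile normalization, values under 5 raised to 5, no filter, the mean of all probe sets, leaving out each array and, added after seeing the data, the other GluClalpha probe sets.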

Additional observations from a re-analysis of the deposited data

Results flagged for a closer look

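Enrichment of 3 channel genes in Pdf cells over Elav cells differed between the adult and the larva, by a test of the difference of differences in limma. For large Pdf cells the adult minus larval value was -8.26 for Rdl (SE 1.99, adjusted p = 0.00618), -4.52 for Lcch3 (SE 1.32, adjusted p = 0.0224) and -5.01 for GluClalpha (SE 1.23, adjusted p = 0.00706). That is 3 of 4 channel genes, against 10.9% of all genes lower in this contrast. For small Pdf cells it was -7.77 for Rdl (SE 2.11, adjusted p = 0.0158), -4.75 for Lcch3 (SE 1.40, adjusted p = 0.0261) and -4.73 for GluClalpha (SE 1.30, adjusted p = 0.0175), again 3 of 4, against 9.61% of all genes.

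Both contrasts use the same adult Elav, larval Elav and larval Pdf arrays. By construction each value is the adult minus larval difference in Pdf cells minus that in Elav cells. In Elav cells this stage difference was 8.85 for Rdl, 8.16 for Lcch3 and 6.42 for GluClalpha. In large Pdf cells it was 0.59, 3.64 and 1.41, and in small Pdf cells 1.08, 3.41 and 1.69. None of these genes was called lower in adult than in larval Pdf cells. In the larva all 3 genes were higher in Pdf than in Elav cells, and in the adult none was called. The larval Elav arrays, on which Lcch3 and GluClalpha were undetected, enter each value. Of the 6 neuron markers 5 were lower in each contrast, with medians of -6.20 and -7.04. Of the markers of dividing cells 4 of 6 were higher (medians 4.11 and 4.21), 2 of 5 glial markers were lower in each, and 1 and 0 of 5 hemocyte markers were lower (medians -4.79 and -4.89). The part of these markers was not tested. With values under 5 raised to 5 the Rdl differences remained past the threshold, at -6.95 (adjusted p = 0.0107) for large and -6.46 (adjusted p = 0.0255) for small Pdf cells. Those of Lcch3 became -2.70 (adjusted p = 0.109) and -2.93 (adjusted p = 0.108), and those of GluClalpha -3.28 (adjusted p = 0.0763) and -3.00 (adjusted p = 0.137), and were not called.

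The Lcch3 value for large Pdf was lost without larval Elav replicate 2 (adjusted p = 0.0558) or larval Pdf replicate 3 (0.0624). For small Pdf cells, which have 2 arrays, all 3 were lost without small Pdf replicate 1 (adjusted p = 0.0603 for Rdl, 0.0629 for Lcch3 and 0.0607 for GluClalpha), and Lcch3 also without small Pdf replicate 2 (0.0853), larval Elav replicate 2 (0.0606) or larval Pdf replicate 3 (0.0652) and without the filter on low values (0.0561). With GluClalpha probe set 1630897_at the adjusted p was 0.0905 for large and 0.0989 for small Pdf cells, and with 1634465_a_at it was 0.0524 and 0.248.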

How the results depend on the processing

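Counts of channel genes called kept their value in most settings, and the cause of the changes below was not tested unless fewer arrays or genes account for it by construction. With only the groups compared in the model the count went from 3 to 1 for larval Tim without Pdf against larval Elav, from 0 to 1 for large Pdf and for small Pdf against adult Elav, from 1 to 0 for small against larval Pdf, and from 3 to 2 for larval Pdf against larval Elav (Rdl, adjusted p = 0.0785). With values under 5 raised to 5 it went from 3 to 1 for larval Tim without Pdf against larval Elav and for both differences of differences. The eye count went from 2 to 1 in that setting by the loss of ort, from whose call nothing is read. For larval Tim against larval Elav the count went from 3 to 2 (GluClalpha, adjusted p = 0.182). Without the filter on low values it went from 1 to 0 for small against larval Pdf, and from 3 to 2 for larval Tim without Pdf against larval Elav (Lcch3, adjusted p = 0.0635) and for the small Pdf difference of differences (Lcch3, adjusted p = 0.0561). With array weights Rdl was called in the eye as well (adjusted p = 0.0421), which took the count there, ort included, from 2 to 3. With the replicate number as a block it went from 1 to 0 for small against larval Pdf, where the Lcch3 difference was 3.33 (adjusted p = 0.0662), and the block changed no other count of channel genes. Leaving out each array in turn gave 1 to 3 for larval Tim without Pdf against larval Elav, 0 to 1 for larval Pdf against larval Tim without Pdf, 0 to 1 for large and for small against larval Pdf, 2 to 3 for the difference of differences of large Pdf and 0 to 3 for that of small Pdf. Over the arrays left out, the Rdl difference ranged from -0.51 to 2.76 for larval Pdf against larval Tim without Pdf and from -0.17 to 1.18 for large against larval Pdf, and that of GluClalpha from -0.71 to 0.53 for large against small Pdf. Signs turned, always of differences that were not called, for Rdl in larval Pdf against larval Tim without Pdf without replicate 3 of the latter (-0.51) and in large against larval Pdf without larval Pdf replicate 1 (-0.17), and for GluClalpha in large against small Pdf without large Pdf replicate 1 (0.53) or with probe set 1630897_at (0.23), in the eye with 1634465_a_at (0.024) and in large against larval Pdf with 1634465_a_at (-0.87).

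Counts over all genes moved by more than 1.5 times with only the groups compared, from 1996 to 1173 for larval Pdf against larval Elav, from 1740 to 868 for larval Pdf against larval Tim without Pdf, from 695 to 426 for large Pdf and 671 to 352 for small Pdf against adult Elav, from 278 to 19 for large against small Pdf, and from 2036 to 1050 for large and 945 to 118 for small against larval Pdf. With array weights larval Tim against larval Elav went from 1795 to 3402. Without larval Elav replicate 2 larval Pdf against larval Elav gave 1294, without larval Tim without Pdf replicate 3 larval Pdf against it gave 1145, and without small Pdf replicate 1 small Pdf gave 408 against adult Elav and 409 against larval Pdf. Group levels of the channel genes moved by over 1 SD in 7 cases, and in 33 did not, with a further quantile normalization. With the mean of all probe sets GluClalpha, the only channel gene with several, moved by over 1 SD in all 8 groups. The other 32 levels belong to genes with 1 probe set and could not move. Values under 5 bound a fold and do not measure it, and 2 arrays of small Pdf cells limit that group.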
